A study of Mus musculus with 23 samples.

Results

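Captured methylated DNA was compared at the gene starts of 10 genes of corticosteroid action and epithelial sodium transport in the left ventricle and spleen of mice on 3 diets. The 10 genes were taken by symbol from the deposited tables, and each had 1 of the 41388 start windows of 3 kb counted per tissue. They are the receptors Nr3c2 and Nr3c1, the enzymes Hsd11b2, Hsd11b1, Cyp11b2 and Cyp11b1, the kinase Sgk1, and the channel subunits Scnn1a, Scnn1b and Scnn1g. In heart, Scnn1a was the single member that passed the test between the high fibre and control diets, lower by 0.42 on the log2 scale with high fibre. In that comparison 26.2% of all tested windows passed. Between heart and spleen on control diet, 8 of the 10 members passed, beside 72.7% of all tested windows. Without Hsd11b2, which had too few spleen reads to be tested within spleen, 7 passed. The 3 channel subunits did not move in one direction: Scnn1a carried less captured DNA in heart, and Scnn1b and Scnn1g carried more. For each subunit, the median window of like abundance moved the same way.

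The mineralocorticoid receptor, encoded by Nr3c2, and the glucocorticoid receptor, encoded by Nr3c1, are steroid-bound transcription factors that recognise closely related DNA elements. Corticosterone fills the mineralocorticoid receptor in cells that lack Hsd11b2, the enzyme that inactivates it, and this is the usual state of heart muscle. Hsd11b1 catalyses the opposite step and regenerates corticosterone. Cyp11b2 makes aldosterone and Cyp11b1 makes corticosterone, both mainly in the adrenal cortex. In the kidney, aldosterone induces Sgk1, a kinase that keeps the epithelial sodium channel at the cell surface, and the channel is built from the products of Scnn1a, Scnn1b and Scnn1g.

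All animals were male C57Bl/6 mice, housed singly, and their age is not given in the sources used here. Group 1 received a control diet without resistant starch, group 2 a diet high in resistant starch (high fibre), and group 3 drank 100 mM magnesium acetate, for which the labels do not name the base diet. Feeding began 3 weeks before a minipump was implanted and continued until the study ended, in every group. What the pump delivered is not given in the sources used here. Sonicated genomic DNA was enriched with a methyl-CpG binding protein (MethylMiner) and sequenced. Heart gave 4 control, 4 high fibre and 3 acetate libraries, and spleen gave 4 of each. The labels leave it unstated that each library of a group is a separate animal, and a p-value then reflects no more than the scatter among libraries, which may be technical. Both tissues are mixtures, so a shift in cell composition and a shift in methylation within cells cannot be told apart.

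Heart libraries held 4.12 to 8.60 M (mega) reads each, spleen libraries 4.36 to 9.87 M. The window of the predicted gene Gm10800 took 19.0% ± 1.72 (SD, n = 4) of the reads in high fibre hearts and 42.2% ± 5.79 (SD, n = 4) in control hearts. Heart acetate replicate 1 stood apart, with a median of 26 reads per window against 38 to 70 in the other hearts. Its part in the results was measured by leaving it out. Between heart and spleen 40.0% of all tested windows were called higher and 32.7% lower. Of 10 cardiomyocyte gene windows 4 were higher and 6 lower in heart, of 6 B cell genes 5 and 0, of 6 T cell genes 2 and 1, of 4 tested myeloid genes 3 and 0, and of 2 pan leukocyte genes 1 and 0. These are levels of captured DNA at gene starts, not expression.

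RefSeq promoter sequence, from 250 bases before to 50 bases after an annotated start, was at hand for 5 of the 10 members. The windows shown are those of the 4 members with the smallest p in any comparison among those 5, with each CpG, the dinucleotide the capture protein reads when methylated, in capitals. Scnn1g (GRCm38.p6, chr7:121734229-121734528, plus strand) holds 18 CpG and Scnn1b (chr7:121864788-121865087, plus strand) holds 10. Nr3c2 (chr8:76902080-76902379, plus strand) holds 17. Sgk1 has 6 annotated starts with 3 to 28 CpG, and start 5 (chr10:21993640-21993939, plus strand) and start 6 (chr10:21994416-21994715, plus strand) are shown, chosen after their content was seen.
Scnn1g: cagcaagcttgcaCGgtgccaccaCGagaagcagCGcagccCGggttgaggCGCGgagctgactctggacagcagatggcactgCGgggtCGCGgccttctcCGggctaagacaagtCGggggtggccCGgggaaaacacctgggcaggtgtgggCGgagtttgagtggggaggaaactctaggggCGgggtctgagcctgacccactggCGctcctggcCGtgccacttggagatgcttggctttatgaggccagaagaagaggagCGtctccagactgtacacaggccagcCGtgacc
Scnn1b: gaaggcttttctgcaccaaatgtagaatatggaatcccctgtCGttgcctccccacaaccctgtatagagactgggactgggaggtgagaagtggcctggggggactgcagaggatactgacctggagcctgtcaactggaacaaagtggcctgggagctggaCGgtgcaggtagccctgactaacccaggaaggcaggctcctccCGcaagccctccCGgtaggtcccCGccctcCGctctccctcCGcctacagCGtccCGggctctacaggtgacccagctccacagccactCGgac
Nr3c2: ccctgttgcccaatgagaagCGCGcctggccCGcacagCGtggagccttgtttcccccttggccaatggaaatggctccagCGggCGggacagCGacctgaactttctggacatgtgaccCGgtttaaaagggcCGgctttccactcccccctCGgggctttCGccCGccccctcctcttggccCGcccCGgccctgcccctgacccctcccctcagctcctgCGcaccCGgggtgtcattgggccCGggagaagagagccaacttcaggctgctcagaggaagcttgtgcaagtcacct
Sgk1 start 5: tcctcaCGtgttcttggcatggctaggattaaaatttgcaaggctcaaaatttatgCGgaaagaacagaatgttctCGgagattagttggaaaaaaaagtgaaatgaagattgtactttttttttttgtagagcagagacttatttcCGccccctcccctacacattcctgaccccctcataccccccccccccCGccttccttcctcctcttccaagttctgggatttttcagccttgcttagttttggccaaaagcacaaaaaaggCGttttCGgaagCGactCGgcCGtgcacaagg
Sgk1 start 6: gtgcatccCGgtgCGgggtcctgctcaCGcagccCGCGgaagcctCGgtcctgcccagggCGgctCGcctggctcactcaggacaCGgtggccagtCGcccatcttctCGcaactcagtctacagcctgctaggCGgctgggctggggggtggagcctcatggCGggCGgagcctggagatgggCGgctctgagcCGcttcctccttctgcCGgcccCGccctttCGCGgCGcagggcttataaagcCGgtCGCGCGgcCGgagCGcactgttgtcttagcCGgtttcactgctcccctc
Over 32851 promoters of 300 bases the median was 7 CpG, with quartiles of 3 and 20. Scnn1g, Nr3c2, Scnn1b and starts 2 and 5 of Sgk1 lay above the median, and start 6 of Sgk1 above the upper quartile. Hsd11b1 (chr1:193242311-193242610, minus strand), whose promoter is not printed, holds 6. The hexamer of the receptor element, AGAACA or its complement TGTTCT, was searched on both strands and occurs in 19.0% of these promoters. Start 5 of Sgk1 holds 3 copies, starts 1 and 4 hold 1 each, and none was in the windows of Nr3c2, Hsd11b1, Scnn1b or Scnn1g. A match is a description of letters and not of binding.

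A window is called here when its adjusted p falls under 0.05 in edgeR's quasi-likelihood test over all windows that passed a filter on low counts. In heart, high fibre against control called 1 of 10 members, beside 26.2% of all 33562 tested windows (12.6% higher and 13.6% lower with high fibre). All 10 members passed the filter in heart, and 9 passed in spleen, where Hsd11b2 had 2 to 13 reads per library. The median log2 fold change of the 10 members was 0.09, against 0.02 for all windows. The count of members called was therefore below the background share, and the members' median lay near that of all windows.

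**Figure D1:**
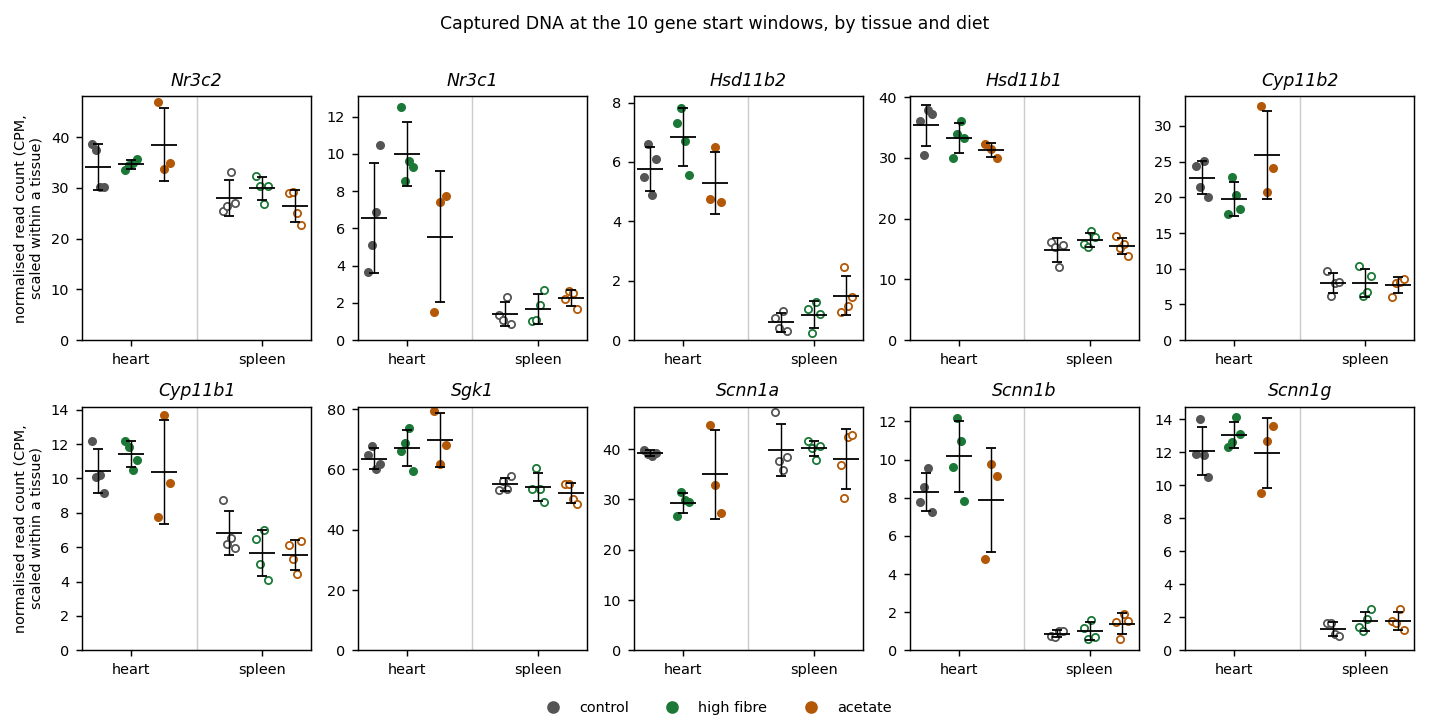
Normalised read counts (CPM after scaling within a tissue) at the start windows of the 10 members, 1 point per library, filled for heart and open for spleen, coloured by diet, with the group mean and SD as bars and each axis starting at 0. In heart, the 4 high fibre libraries of Scnn1a (26.7 to 31.5 CPM) lie below the 4 control libraries (38.7 to 39.9 CPM), and 1 acetate library lies apart for several members.

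Among the receptors, Nr3c1 (chr18:39410545-39519421) read 3.65, 5.12, 6.89 and 10.5 CPM (reads per M reads of the library after TMM scaling within heart) in the control hearts. In the high fibre hearts it read 8.56, 9.28, 9.60 and 12.5 CPM. The highest control library lay inside the high fibre range, so the groups overlapped. The log2 fold change was 0.61 (SE 0.300, adjusted p = 0.109), and the window was not called. It was called without heart acetate replicate 1 (0.62, adjusted p = 0.00648), when 42.3% of all windows were called, and without heart control replicate 4 (0.93, adjusted p = 0.0375). Counts were low, at 24 to 55 reads per control heart and 47 to 87 per high fibre heart. Nr3c2 (chr8:76898083-77245012) read 34.1 ± 4.56 CPM (SD, n = 4) on control diet and 34.6 ± 0.873 CPM (SD, n = 4) on high fibre, a log2 fold change of 0.01 (SE 0.125). The control hearts spread from 30.2 to 38.7 CPM and enclosed all 4 high fibre hearts.

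None of the steroid-converting enzymes passed the test in heart. Hsd11b2 (chr8:105518746-105523988) read 5.77 ± 0.748 CPM on control diet and 6.85 ± 0.972 CPM on high fibre (SD, n = 4 each). Its neighbour Atp6v0d1, with a gap of 472 bases between the genes and not the windows, had a log2 fold change of -0.18 (adjusted p = 0.256). The value for Hsd11b2 was 0.22 (SE 0.227, adjusted p = 0.440). The opposing enzyme Hsd11b1 (chr1:193221640-193264045) read 35.4 ± 3.39 and 33.3 ± 2.49 CPM (SD, n = 4 each), a log2 fold change of -0.09 (SE 0.113). Cyp11b2 (chr15:74850618-74856231) and Cyp11b1 (chr15:74834892-74841643) are related genes 8974 bases apart. The likeness of their windows was not measured, and how reads that match both were counted is not given, so their values are uncertain. Cyp11b2 gave -0.21 (SE 0.140) and Cyp11b1 gave 0.12 (SE 0.166).

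Sgk1 (chr10:21882184-21999903) had the most reads of the members in every heart library, 266 to 461, and its several starts may have been summed into 1 window. It read 60.0, 61.7, 64.7 and 67.9 CPM in control hearts and 59.6, 66.1, 68.8 and 73.7 CPM in high fibre hearts. The ranges overlapped over most of their length. The log2 fold change was 0.07 (SE 0.108, adjusted p = 0.624), and it passed the threshold with cyclic loess scaling (0.32, adjusted p = 0.0129).

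Among the channel subunits, Scnn1a (chr6:125314271-125344943), the subunit the channel needs to conduct, read 38.7, 39.0, 39.3 and 39.9 CPM in the control hearts. In the high fibre hearts it read 26.7, 29.4, 29.9 and 31.5 CPM. All 4 high fibre libraries were below all 4 controls. The window fell by 0.42 on the log2 scale (SE 0.128, adjusted p = 0.0227). Windows of its abundance were mostly lower too: in the ninth decile of abundance the median was -0.26, and 34.7% of 3356 windows were called lower. The call was lost without heart control replicate 1 (adjusted p = 0.0675) or 3 (0.0515), and without high fibre replicate 3 (0.0530) or 4 (0.0851). It was also lost with cyclic loess (-0.20, adjusted p = 0.169) and with 1 surrogate variable (-0.12, adjusted p = 0.834), and on library totals the sign turned (0.27, adjusted p = 0.0794).

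The windows of the genes beside Scnn1a were lower as well. Tnfrsf1a, a receptor of tumour necrosis factor, fell by 0.53 on the log2 scale (SE 0.135, adjusted p = 0.0108). Its gene lies 4779 bases past one end of the 30673-base Scnn1a gene. Ltbr, the lymphotoxin receptor gene, lies 385 bases past the other end and gave -0.31 (SE 0.117, adjusted p = 0.0547). These are gaps between genes, and the distances between start windows were not measured. The windows of Ltbr and Scnn1a may share reads, which was not tested.

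The other subunits did not pass. Scnn1b (chr7:121865038-121918728) read 7.26, 7.76, 8.59 and 9.56 CPM in control hearts and 7.85, 9.61, 11 and 12.2 CPM in high fibre hearts, with 0.28 in log2 fold change (SE 0.201, adjusted p = 0.278). Scnn1g (chr7:121734420-121768482), its neighbour with 96555 bases between the genes, read 12 ± 1.45 and 13.0 ± 0.789 CPM (SD, n = 4 each), with a log2 fold change of 0.10 (SE 0.144). Both sets of libraries overlapped.

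**Figure D2:**
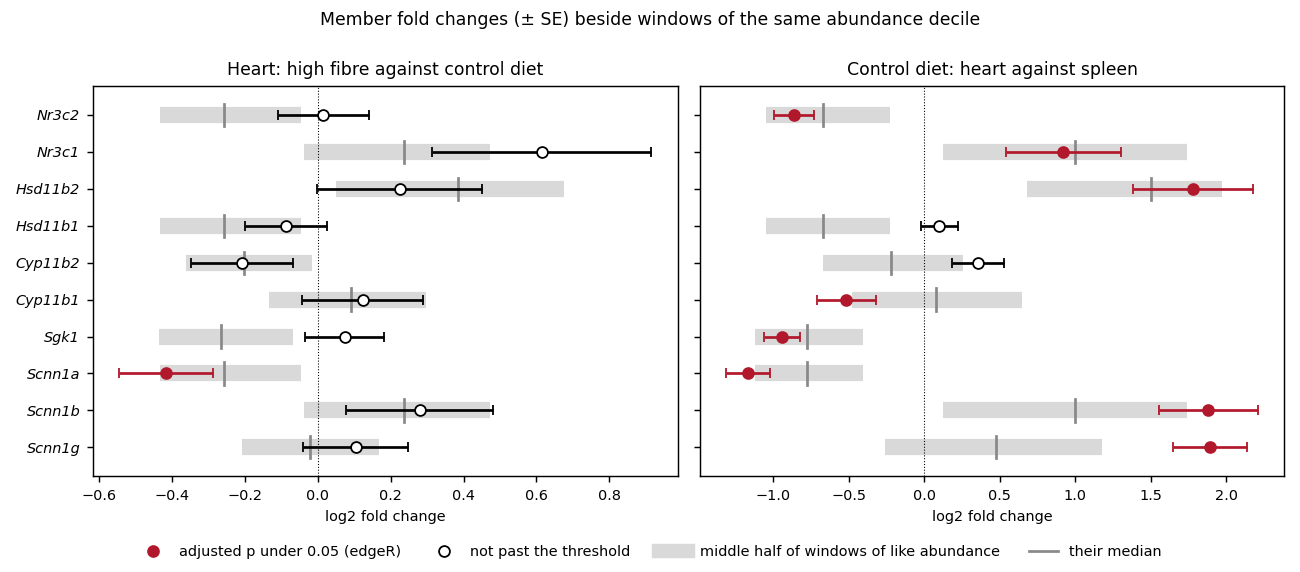
Log2 fold changes of the 10 members with their SE, for high fibre against control in heart (left) and heart against spleen on control diet (right); red points passed the threshold, and grey bars show the interquartile range and the median of windows in the same decile of abundance. On the left Scnn1a (-0.42) is the single red point, and on the right Scnn1b (1.88) and Scnn1g (1.89) lie on the other side of 0 from Scnn1a (-1.17).

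Acetate against control in heart called 0 of 10 members and 0.0% of all windows (840 windows at an unadjusted p under 0.05, and 0 called by DESeq2). Without heart acetate replicate 1 it called 684 windows (2.02%) and again 0 members. Member fold changes lay between -0.19 and 0.16 on the log2 scale. Scnn1a had the lowest, -0.19 (SE 0.141), from acetate libraries at 27.4, 32.9 and 44.7 CPM. The library at 44.7 CPM was heart acetate replicate 1, above every control, and the others were below every control. Without that replicate Scnn1a gave -0.38 (adjusted p = 0.0670). Nr3c1 read 1.49, 7.41 and 7.73 CPM on acetate, and the lowest value, from 5 reads, was again replicate 1; its log2 fold change was -0.10 (SE 0.354) with it and 0.23 (adjusted p = 0.642) without it. The other receptor, Nr3c2, gave 0.15 (SE 0.137). Among the enzymes the values were -0.11 for Hsd11b2 (SE 0.260), -0.18 for Hsd11b1 (SE 0.126), 0.16 for Cyp11b2 (SE 0.152) and 0.02 for Cyp11b1 (SE 0.187). Sgk1 gave 0.12 (SE 0.118), Scnn1b -0.01 (SE 0.229) and Scnn1g 0.01 (SE 0.161). None of these passed the test. Heart acetate replicate 1 also had the lowest heart values of Scnn1b (4.77 CPM), Scnn1g (9.54 CPM) and Cyp11b1 (7.75 CPM), and the highest of Nr3c2 (46.8 CPM), Cyp11b2 (32.8 CPM) and Sgk1 (79.3 CPM).

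High fibre against acetate in heart called 0 of 10 members, beside 1.38% of all windows. The smallest adjusted p was 0.0488, just under the threshold, while 9105 windows had an unadjusted p under 0.05. The share called changed when single libraries were left out, control libraries included. It was 0 without control replicate 2, 3 or 4 or high fibre replicate 1, 2 or 3. It was 0.012% without high fibre replicate 4 and 0.289% without acetate replicate 1. It was 8.72% without acetate replicate 2 and 13.4% without acetate replicate 3, and DESeq2 called 7.5%. No member was called in any of these fits. The comparison shares its high fibre libraries with the first and its acetate libraries with the second. Nr3c1 gave 0.71 (SE 0.334, adjusted p = 0.159), and its groups did not overlap. The share of all windows whose groups separate was not counted, here or in the other comparisons. Without heart acetate replicate 1 Nr3c1 gave 0.39 (adjusted p = 0.434). Cyp11b2 gave -0.36 (SE 0.152, adjusted p = 0.130), and -0.20 without that replicate. The remaining values were -0.14 for Nr3c2 (SE 0.136), 0.34 for Hsd11b2 (SE 0.254), 0.09 for Hsd11b1 (SE 0.125) and 0.10 for Cyp11b1 (SE 0.183). Sgk1 gave -0.05 (SE 0.117), Scnn1a -0.23 (SE 0.142), Scnn1b 0.29 (SE 0.222) and Scnn1g 0.09 (SE 0.158), and none passed the test.

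In spleen no member was called in any diet comparison. High fibre against control called 0 of 9 members and 0.0% of 24871 windows, with 502 windows at an unadjusted p under 0.05 and 0 called by DESeq2. For acetate against control and high fibre against acetate the counts were also 0 of 9 and 0.0%, with 872 and 823 windows at an unadjusted p under 0.05 and 1 and 0 windows called by DESeq2. Scnn1a read 35.8, 37.7, 38.5 and 47.4 CPM (scaled within spleen) on control diet and 37.9, 40.3, 40.7 and 41.6 CPM on high fibre. Its log2 fold change there was 0.01 (SE 0.125), with overlapping groups. The difference between heart and spleen in the high fibre effect was -0.42 for Scnn1a (SE 0.204, adjusted p = 0.293), so a difference between the tissues was not shown.

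The diet groups of every other member overlapped in spleen too. Nr3c2 read 28.0 ± 3.51, 29.9 ± 2.29 and 26.5 ± 3.16 CPM on control, high fibre and acetate (SD, n = 4 each). Sgk1 read 55.1 ± 2.21, 54.1 ± 4.64 and 52.2 ± 3.38 CPM, and Hsd11b1 read 14.8 ± 1.91, 16.5 ± 1.17 and 15.5 ± 1.35 CPM in the same order. Cyp11b2 lay between 6.02 and 10.4 CPM and Cyp11b1 between 4.10 and 8.72 CPM over the 12 libraries. High fibre against control gave 0.09 for Nr3c2, 0.16 for Nr3c1, 0.15 for Hsd11b1, 0.02 for Cyp11b2, -0.25 for Cyp11b1, -0.02 for Sgk1, 0.17 for Scnn1b and 0.33 for Scnn1g. Acetate against control gave -0.09, 0.55, 0.06, -0.05, -0.26, -0.08, 0.57 and 0.36 for the same genes, and -0.06 for Scnn1a. High fibre against acetate gave 0.18, -0.39, 0.09, 0.07, 0.01, 0.06, -0.40 and -0.02 in that order, and 0.07 for Scnn1a. No value passed the test, and the widest belong to the scarce windows. Reads were few for 4 members: Nr3c1 had 6 to 21 per library, Scnn1b 3 to 14, Scnn1g 6 to 17 and Hsd11b2 2 to 13. At these counts the high fibre effect had an SE of 0.435 for Nr3c1, 0.502 for Scnn1b and 0.421 for Scnn1g on the log2 scale. Differences of that size, and larger ones, could therefore be missed at this depth. The test of a difference between tissues in the diet effect called 0 of 10 members for high fibre. It called 0.0559% of all windows (19 windows), with 5571 at an unadjusted p under 0.05. Without heart control replicate 3, heart high fibre replicate 2 or 4, or spleen control replicate 2, 0 windows were called. Without spleen control replicate 1 there were 602 (1.77%), and without heart acetate replicate 1 there were 204 (0.595%), with 0 members in each. The high fibre differences were -0.08 for Nr3c2, 0.46 for Nr3c1, -0.12 for Hsd11b2, -0.24 for Hsd11b1, -0.22 for Cyp11b2, 0.38 for Cyp11b1, 0.10 for Sgk1, 0.09 for Scnn1b and -0.22 for Scnn1g. For acetate it called 0 of 10 and 0.0% of windows, with 1553 windows at an unadjusted p under 0.05 and 0 called by DESeq2. The widest member value was that of Hsd11b2 for acetate, -1.11 (SE 0.568, adjusted p = 1), from spleen libraries of 2 to 13 reads. The other acetate differences were 0.28 for Nr3c2, -0.64 for Nr3c1, -0.21 for Hsd11b1, 0.23 for Cyp11b2, 0.30 for Cyp11b1, 0.24 for Sgk1, -0.10 for Scnn1a, -0.63 for Scnn1b and -0.32 for Scnn1g.

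Heart against spleen on control diet called 8 of 10 members, beside 72.7% of 33982 windows. Of the members, 4 were higher in heart (40.0% of all windows were) and 4 lower (32.7%), and the median log2 fold change was 0.23 against 0.19 over all windows. The 8 include Hsd11b2, which entered through its heart counts, and without it 7 of 9 were called, 3 of them higher in heart. The share of members called was near the background. CPM in this comparison was scaled over both tissues together, so it differs from the values above.

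The receptors differed from spleen in opposite directions, each as windows of its abundance did: the median was -0.67 in the decile of Nr3c2 and 1.00 in that of Nr3c1. Nr3c2 read 19.9, 20.0, 24.7 and 25.6 CPM in heart and 37.9, 39.1, 39.4 and 49.0 CPM in spleen. All hearts were below all spleens, -0.86 in log2 fold change (SE 0.132, adjusted p = 6.25e-07). Nr3c1 read 2.42, 3.39, 4.57 and 6.94 CPM in heart and 1.29, 1.55, 2.10 and 3.42 CPM in spleen. It was higher in heart by 0.92 (SE 0.378, adjusted p = 0.0168), although the ranges overlapped. Its call was lost without heart control replicate 4 (0.62, adjusted p = 0.122), spleen control replicate 2 (0.79, 0.0619) or spleen control replicate 4 (0.79, 0.0570), and the sign turned with cyclic loess (-0.09). With cyclic loess Nr3c2 was not called (-0.23, adjusted p = 0.0772). On library totals its sign turned (0.04, adjusted p = 0.809), where the median of all windows moved to 1.03.

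Of the converting enzymes, Hsd11b2 was higher in heart, at 3.24, 3.63, 4.04 and 4.38 CPM against 0.430, 0.563, 1.16 and 1.47 CPM in spleen. The log2 fold change was 1.78 (SE 0.396, adjusted p = 2.21e-05), beside a median of 1.5 in its abundance decile. With cyclic loess it was 0.65 and not called (adjusted p = 0.118). The spleen values rest on 2 to 9 reads per library. The window passed the filter through its heart counts, and windows scarce in both tissues were left out, which favours a difference. Hsd11b1 read 23.4 ± 2.25 CPM in heart and 22.0 ± 3.08 CPM in spleen (SD, n = 4 each) and was not called (0.10, SE 0.125, adjusted p = 0.468), but was called higher in heart with cyclic loess (0.65), on library totals (0.98) and on totals without the 5 largest windows (0.54). Cyp11b1 was lower in heart, at 6.06 to 8.06 CPM against 8.60 to 13.5 CPM, with -0.52 in log2 fold change (SE 0.193, adjusted p = 0.0135). Without spleen control replicate 1 it was no longer called (-0.37, adjusted p = 0.0861), nor with DESeq2 (-0.42, adjusted p = 0.0514), 1 surrogate variable (-0.45, adjusted p = 0.106) or totals without the 5 largest windows (-0.08, adjusted p = 0.705). On library totals the sign turned (0.35, adjusted p = 0.158). Cyp11b2 missed the threshold at 0.36 (SE 0.172, adjusted p = 0.0546), and was called higher in heart under several other settings. It passed without heart acetate replicate 1 (adjusted p = 0.0416), heart control replicate 4 (0.0425), spleen high fibre replicate 4 (0.0477), spleen acetate replicate 4 (0.0494) or spleen control replicate 1 (0.0183). It also passed with DESeq2 (0.48), 1 surrogate variable (0.705), cyclic loess (0.68), totals without the 5 largest windows (0.80) and library totals (1.24).

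Sgk1 read 39.8, 40.8, 42.8 and 45.0 CPM in heart and 79.0, 80.1, 82.2 and 83.6 CPM in spleen. No heart library came near a spleen library, and the log2 fold change was -0.94 (SE 0.120, adjusted p = 2.51e-08). The call was lost with cyclic loess (-0.18, adjusted p = 0.114) and on library totals (-0.04, adjusted p = 0.831). In its decile of abundance, the top one, the median was -0.78 and 81.8% of windows were called lower in heart.

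The channel subunits split. Scnn1a read 25.6, 25.8, 26.0 and 26.4 CPM in heart and 52.8, 53.9, 55.7 and 73.4 CPM in spleen, -1.17 in log2 fold change (SE 0.144, adjusted p = 1.42e-08). Scnn1b read 4.80, 5.14, 5.69 and 6.33 CPM in heart and 0.985, 1.16, 1.47 and 1.5 CPM in spleen, 1.88 in log2 fold change (SE 0.327, adjusted p = 9.5e-07). Scnn1g read 6.94, 7.81, 7.86 and 9.30 CPM in heart and 1.29, 1.47, 2.39 and 2.56 CPM in spleen, 1.89 in log2 fold change (SE 0.246, adjusted p = 9.54e-09). In each subunit heart and spleen libraries were separate. The control spleen values rest on few reads, 5 to 9 per library for Scnn1b and 6 to 17 for Scnn1g. Scnn1b and Scnn1g, which lie side by side on chromosome 7, were both called with library totals, cyclic loess, 1 surrogate variable and DESeq2, in the same direction. Scnn1a kept its direction under these 4 settings, and lost its call on library totals (-0.26, adjusted p = 0.102). Scarcer windows were in general higher in heart: the median was 1.00 in the abundance decile of Scnn1b and 0.47 in that of Scnn1g, where Scnn1g lay at the 91.7th percentile. The most abundant windows were in general lower: in the top decile, which holds Scnn1a, the median was -0.78 and 81.8% were called lower. The neighbours of Scnn1a, Ltbr (-0.99) and Tnfrsf1a (-1.39), were lower in heart as Scnn1a was. Cog7 gave 0.13 (SE 0.223, adjusted p = 0.592). Its gene lies 4107 bases past the far end of the 53691-base Scnn1b gene, and the distance between their windows was not measured.

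**Figure D3:**
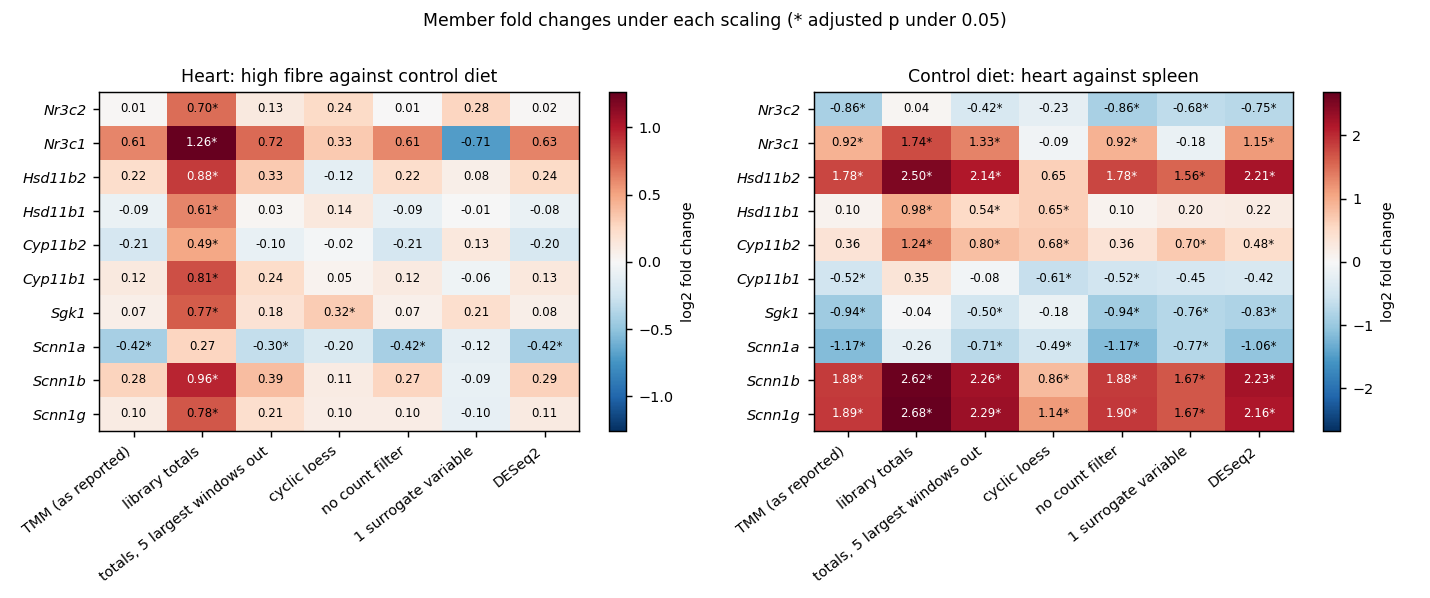
Log2 fold changes of the 10 members (rows) under each scaling, filter or test (columns), for high fibre against control in heart (left) and heart against spleen (right), with colour and printed value giving the fold change and an asterisk marking an adjusted p under 0.05. Library totals lift most values, and on the right Scnn1b and Scnn1g keep a positive call in every column.

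Reads of 1 member set against another within a library do not depend on the scaling factor of that library. They would change under cyclic loess, whose offsets vary with window abundance. These ratios were chosen after the values were seen and carry no test. Per 100 reads of Scnn1a, the control hearts held 18.4, 19.5, 22.0 and 24.7 reads of Scnn1b, and the high fibre hearts held 26.7, 36.0, 37.0 and 38.7. No control heart reached the high fibre range. Windows as abundant as Scnn1b had a median log2 fold change of 0.24 in this comparison, and those as abundant as Scnn1a had -0.26, so such a ratio was higher with high fibre for windows of these abundances in general. Of single windows, 26.2% were called. For Scnn1g the control hearts held 26.7, 29.8, 30.5 and 36.0 reads per 100 of Scnn1a and the high fibre hearts 39.9, 44.7, 46.2 and 47.3, again without overlap. The acetate hearts held 10.7, 29.7 and 33.3 reads of Scnn1b, and 21.3, 38.5 and 49.7 of Scnn1g, with replicate 1 lowest in both. In spleen the means were 2.23 to 3.58 reads of Scnn1b and 3.26 to 4.75 of Scnn1g over the 3 diets, and the diets overlapped. Per 100 reads of Sgk1, Scnn1a held 61.8 ± 3.17 reads in control hearts and 44.0 ± 4.37 in high fibre hearts (SD, n = 4 each), without overlap. Scnn1a is the denominator or numerator in each of these ratios, so they are not independent of one another.

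**Figure D4:**
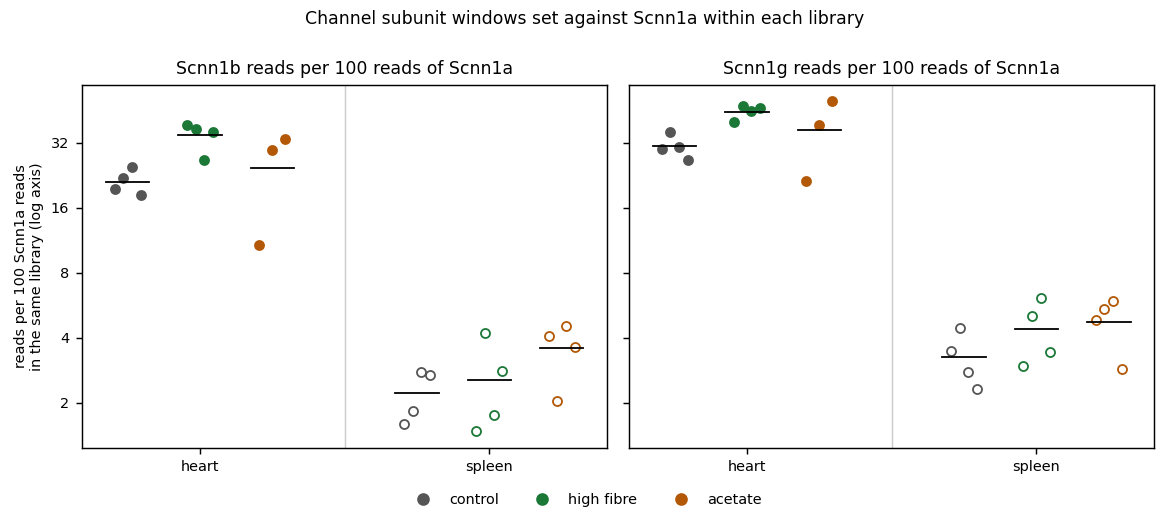
Reads of Scnn1b (left) and Scnn1g (right) per 100 reads of Scnn1a in the same library, on a log axis, by tissue and diet, 1 point per library with the group mean as a line. The high fibre hearts (Scnn1b 26.7 to 38.7, Scnn1g 39.9 to 47.3) lie above the control hearts (18.4 to 24.7 and 26.7 to 36.0), and all spleens lie below all hearts.

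Of the other ratios between paired members, that of the Cyp11b genes also separated these diets in heart. Nr3c1 held 20.2 ± 11.2 reads per 100 of Nr3c2 in control hearts and 28.9 ± 5.63 in high fibre hearts (SD, n = 4 each), and 4.92 ± 1.60 in control spleens. Hsd11b2 held 16.5 ± 3.73 reads per 100 of Hsd11b1 in control hearts, 20.7 ± 3.65 in high fibre hearts and 4.33 ± 2.86 in control spleens. Cyp11b1 held 40.7 to 50.0 reads per 100 of Cyp11b2 in control hearts and 51.8 to 69.1 in high fibre hearts, which did not overlap, and 72.7 to 100.0 in control spleens. How many reads these related genes share was not tested.

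The wider pathway was read from 4 lists. Of 13 receptor chaperones and coregulators, high fibre against control in heart called 1 higher and 4 lower, with a list median of -0.19 against 0.02 over all windows. The corepressor Nrip1 rose by 0.54, and the chaperone genes Hsp90ab1 (-0.47) and Hsp90aa1 (-0.35) and the coactivator Ncoa3 (-0.33) fell. Of 16 genes of steroid synthesis and conversion, 2 were higher and 3 lower. Hsd3b2 (1.21) and Hsd3b1 (0.95), related genes whose reads could be split, were higher. The calcium channel gene Cacna1h (-0.60) and the cholesterol carrier gene Star (-0.44) were lower. Of 14 corticosteroid target genes, 0 were higher and 3 lower, among them Cdkn1a (-0.43) and Per1 (-0.40). Of 18 channel regulators and relatives, 2 were higher and 5 lower, among them Rictor (0.65), a part of the complex that activates Sgk1, the channel-cleaving protease gene Prss8 (-0.56), Asic1 (-0.61) and Sgk2 (-0.41). In all, 5 of 13, 5 of 16, 3 of 14 and 7 of 18 were called, beside 26.2% of all windows. By promoter CpG count, the median over windows with a promoter sequence was 0.43 for 0 to 2 CpG and -0.03 for 3 to 5. It was -0.15 for 6 to 10, -0.09 for 11 to 24 and -0.04 for 25 or more.

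In acetate against control in heart, and in all spleen comparisons, 0 genes of the 4 lists were called. High fibre against acetate in heart called Cacna1h alone, which fell by 0.69 (adjusted p = 0.0488). In that comparison 0 windows were called, Cacna1h included, when control replicate 2, 3 or 4 or high fibre replicate 1, 2 or 3 was left out. Between heart and spleen on control diet, where 40.0% of all windows were higher and 32.7% lower, the chaperone and coregulator list had 5 higher and 7 lower of 13, led by Hsp90ab1 (-1.27) and Nrip1 (1.30). The synthesis list had 4 higher and 6 lower of 16, led by Cacna1h (-1.20) and Star (-0.92). The corticosteroid targets had 4 higher and 8 lower of 14. Klf9 (-2.38), Ndrg2 (-1.62) and Per1 (-1.18) held less captured DNA at their starts in heart. The channel regulators had 6 higher and 8 lower of 18, with the protease gene Tmprss4 at 1.98, Asic5 at 1.37 and Sgk2 at -0.98. All 4 lists had a lower median than the 0.19 of all windows, from -0.56 for the corticosteroid targets to -0.15 for the synthesis list. By promoter CpG count, the median over windows with a promoter sequence was 1.04 for 0 to 2 CpG and 0.23 for 3 to 5. It was -0.20 for 6 to 10, -0.08 for 11 to 24 and -0.03 for 25 or more. The lists were not compared with windows of like CpG content or abundance.

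Over all 23 libraries, windows whose log2 CPM ran most like that of Nr3c2 included Lrrfip1 (Pearson r = 0.970) and Lgalsl (0.966). Those most like Sgk1 were Slc25a13 (0.983), Cartpt (0.981) and Ccdc86 (0.976). These were picked from the highest of 20692 windows and are a description. The libraries share the difference between heart and spleen, which by itself gives windows a common pattern.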

How the data were processed

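Captured DNA was measured in 23 libraries, 11 of heart and 12 of spleen, grouped by tissue and diet. The deposited values are counts of reads per 3 kb start window, without scaling or pooling by the authors. The submitters' processing notes give build GRCm38, with featureCounts 1.5.1, BWA 0.7.10, bcl2fastq 2.19.1.403 and edgeR 3.16.5. How windows were centred, and how duplicate or multiply aligned reads were treated, is not given in the sources used here. There is no unenriched library in the data used, so capture efficiency and copy number enter the counts. Tests ran in edgeR 4.0.16 (R 4.3.3) by quasi-likelihood on counts with TMM factors, filterByExpr (minimum 10) and Benjamini-Hochberg adjustment over all tested windows. Fold changes carry a prior count of 2; SE is the unshrunk log2 fold change over the root of F. The 3 diets of a tissue shared a fit. Tissue contrasts used 1 fit over both tissues. Every member has its value given in each comparison for which it passed the filter, and list genes up to the 4 of smallest p; a few that the rule selects are not reported here. Promoters and positions are from RefSeq (GRCm38.p6). Alternatives were other scalings, no filter, 1 surrogate variable (sva 3.50.0), DESeq2 1.42.0, a replicate block and leaving out each library. Scripts were tested on simulated data. Members and lists were chosen with earlier results of these data known.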

Additional observations from a re-analysis of the deposited data

How the results depend on the processing

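In heart, high fibre against control called 1 member as reported, 9 on library totals, 0 with 1 surrogate variable and 0 to 2 when 1 library was left out, with 7.45% (without heart control replicate 1) to 42.3% (without heart acetate replicate 1) of all windows called. The share of all windows called moved with these settings, to 73.4% on library totals (median log2 fold change 0.69), 16.9% with cyclic loess and 0.125% with the surrogate variable. On library totals the sign turned for Hsd11b1 (0.61), Cyp11b2 (0.49) and Scnn1a (0.27). High fibre against acetate in heart called 1 member on library totals, Hsd11b1 (0.54), beside 5.61% of all windows. The difference between tissues in the high fibre effect called 3 members on library totals, beside 18.8% of all windows, with Nr3c2 turned to 0.60. For heart against spleen, 6 to 9 members were called under the scalings, the block, the surrogate variable and DESeq2. The share of all windows called ran from 50.1% with the surrogate variable to 74.9% on library totals. The sign turned for Nr3c2 (0.043) and Cyp11b1 (0.35) on library totals, and for Nr3c1 with cyclic loess (-0.088) and the surrogate variable (-0.18). The cause of these changes was not tested. Of 1953 member values under alternatives, 1899 kept their side of the threshold, of which 115, none called, changed sign. That total includes comparisons that called 0 windows, where few changes could occur. For high fibre against control in heart, settings other than leaving out a library kept 56 values. Another 9 gained a call, 2 lost it and 3 changed both sign and side. For heart against spleen they kept 49, with 9, 8 and 4 in that order. Leaving out 1 library kept 104 and 221, with 2 and 5 gaining a call and 4 and 4 losing it.

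Heart and spleen libraries share numbers in their titles, and the labels do not say whether a shared number marks the same mouse. By correlation, shared numbers did not pair the libraries throughout: of 10 same-numbered pairs across diets in heart, 5 correlated above 0.1 (range -0.08 to 0.60), in spleen 5 of 12, and across tissues 4 of 11. Of different-numbered pairs, 6 of 30, 5 of 36 and 3 of 33 did, in the same order. Same-numbered pairs thus passed 0.1 more often, and a shared source was not excluded. With the replicate block, high fibre against control in heart called 2 members, Scnn1a and Nr3c1 (0.63, adjusted p = 0.0339), and 31.3% of all windows. With a block by the number shared between tissues, the difference in the high fibre effect called 980 windows in place of 19, and 0 members. Heart against spleen then called 9 members, beside 72.3% of all windows, with Cyp11b2 added (0.36, adjusted p = 0.0492). In high fibre against acetate in heart the block called 6.81% of windows and 0 members. Libraries correlated best with their own number in 5 of 14 cases across diets in heart, 7 of 16 in spleen and 10 of 22 across tissues. The rate for unrelated libraries was not computed.

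Depth limits Nr3c1, Scnn1b, Scnn1g and Hsd11b2 in spleen, where no library held over 21 reads of any of them.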
